A study of Rattus norvegicus with 20 samples.

Results

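The tricarboxylic acid (TCA) cycle enzymes described here are 9 genes: Cs, Idh3a, Idh3b, Idh3g, Sucla2, Suclg1, Sdha, Sdhb and Mdh2. They were chosen by name, with earlier results of these data known. Each gene was read on the brightest of the probe sets that the array annotation pairs with its symbol alone. The array held 11 probe sets for these 9 genes, and all 9 genes were among the 7113 genes that passed the filter on low signals (9520 probe sets tested). The cycle runs in the mitochondrial matrix, where it oxidises the acetyl group of acetyl-CoA to carbon dioxide and hands the electrons to the respiratory chain. In white adipocytes it also supplies citrate, which leaves the mitochondrion and yields the cytosolic acetyl-CoA used for fatty acid synthesis. The cycle is fed with acetyl-CoA from pyruvate and from fatty acid oxidation.

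Visceral white adipose tissue was taken from male Wistar rats kept on food restriction (calorie restriction, CR) from 6 weeks of age for 1 week or 1 month. The groups were a control, 5% CR, 10% CR, 20% CR and 30% CR at each duration. Daily intakes had been recorded under free feeding. The control was offered that recorded intake and each CR group its percentage less. All rats ate the purified AIN-93G diet and were fasted for 16 h before sampling. RNA of 5 rats was pooled in each group and hybridised to 2 Affymetrix arrays, so that 20 arrays stood for 10 pools and the 2 arrays of a pool were technical repeats. The pool was the unit of every test except in an alternative fit of the 20 arrays, in which the pool was a random effect. With 1 pool in each group, p-values on pool means rest on the scatter of the pools about the fit, not on animals within a group. Values are log2 MAS5 signals averaged over the 2 arrays of a pool. Signals of different genes come from different probes and were not compared as levels.

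The tissue label was checked on markers. The 9 adipocyte markers on the array averaged 9.93 to 10.59 over the pools. The brown fat list averaged 2.97 to 3.61 and the skeletal muscle list 2.98 to 3.92, and their means hide 1 bright gene each: Cidea in the brown fat list, at 9.50 to 10.77, and Myh1 in the muscle list, with a mean of 9.87. The other 5 brown fat genes on the array, Ucp1 among them, and 8 of the 10 muscle genes lay below the filter, which kept probe sets at a signal of 22.8 or more, and the muscle gene Ckm lay just above it. Brown fat and muscle are both rich in mitochondria. The 13 exocrine pancreas markers averaged 12.08 in the 1-week control and 6.49 in the 1-week 30% pool. They averaged 2.37 to 2.95 in the other 8 pools. All 1-week differences from the control are taken from that 1-week control pool. The 1-week arrays had been scaled to different levels in the deposited table (trimmed means of 77.2 for the first arrays and 111 for the second), while the 1-month arrays lay between 97.4 and 97.7. A rise in a bulk tissue cannot be told apart as more RNA per cell or more cells of the kind that carries it.

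Of the 9 genes, 8 could be matched to a RefSeq promoter (assembly GRCr8), of which the 250 bases before the annotated start were searched: all but Idh3a. Of 7 motifs searched on both strands, the ETS core CCGGAAG is bound by ETS-family factors such as GABP, which is known to activate genes of mitochondrial proteins. It was found in 4 of the 8 promoters, against 7.74% of all 27457 promoters and 16.6% of the promoters of the 6000 tested genes that had one. The 60-base windows around these 4 matches are shown because the genes that carry them were among those that rose with restriction. Sucla2 and Sdha rose too, without these letters. Among other enzymes of the cycle, Dlst and Sdhd held the letters but did not pass the dose test (limma adjusted p = 0.116 and 0.0759). Suclg2 passed upwards without them (limma adjusted p = 0.0490). Cs, Suclg1, Idh2, Ogdh, Dld and Sdhc neither held the letters nor passed. A link between the letters and the rise was not tested. Capitals mark the motif letters, which read CTTCCGG where the match lies on the other strand.
Idh3b, chr3:137939991-137940050, minus strand: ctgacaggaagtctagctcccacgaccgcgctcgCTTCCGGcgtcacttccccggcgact
Idh3g, chrX:156675544-156675603, minus strand: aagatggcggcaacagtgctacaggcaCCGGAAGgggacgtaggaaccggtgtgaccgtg
Sdhb, chr5:158547799-158547858, plus strand: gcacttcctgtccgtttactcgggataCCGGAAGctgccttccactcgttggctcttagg
Mdh2, chr12:26544032-26544091, minus strand: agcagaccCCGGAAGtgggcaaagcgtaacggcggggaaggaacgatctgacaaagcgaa
The nearest motif base lay 20 bases before the start in Idh3b, 88 in Idh3g, 102 in Sdhb and 236 in Mdh2. The NRF1 letters GCGCATGC were found in the Sdhb promoter alone (2.38% of all promoters and 4.83% of those of tested genes), the cAMP response element TGACGTCA in Mdh2 alone (1.70% and 2.80%) and the YY1 letters AAGATGGC in Idh3g alone (1.69% and 2.53%). The estrogen-related receptor letters AAGGTCA were found in none of the 8 (3.77% and 2.25%). The broader letters GGGCGG, bound by SP factors, were found in 3 of the 8 (32.4% and 61.9%) and CCAAT in 4 (34.3% and 35.8%). No match overlapped the ETS letters. Such matches describe the letters and not binding.

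The signal of 6 of the 9 TCA cycle enzymes rose with the level of restriction over both durations, and the other 3 did not pass the test. The 6 genes passed the test of the dose slope upwards (limma, Benjamini-Hochberg adjusted p under 0.05 over all 9520 probe sets) and 0 of the 9 downwards, against 5.71% of all tested probe sets called higher. The 6 were Sucla2, Sdha, Sdhb, Idh3b, Idh3g and Mdh2. Because the 9 genes were chosen with earlier results of these data known, the contrast with 5.71% is not an independent test. Of 7 other enzymes of the cycle that were tested, 1 passed upwards, with a median slope of 0.096. The median slope of the 9 genes was 0.14 on the log2 scale for each 10% of restriction, against -0.011 over all tested probe sets. The changes were small in size, with fitted folds at 30% CR of 1.20 to 1.44 over the control level.

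The slope calls rested on few pools. Without the 1-week control, the 1-week 30% or the 1-month control pool, 0 of the 9 genes passed, with median slopes of 0.11, 0.15 and 0.12. Without the 1-week 20%, the 1-month 5% or the 1-month 20% pool, 3 passed in each case. Within the 8 restricted pools alone the median slope was 0.082 and 0 passed, and without the 1-week control and 1-week 30% pools, which carried pancreas RNA (13 acinar markers averaging 12.08 and 6.49 against 2.37 to 2.95 in the other 8 pools), it was 0.14 and 0 passed. With the mean of adipocyte markers or of lymphocyte markers as a term in the fit, 0 passed, with median slopes of 0.095 and 0.088. The shares of all probe sets called in these fits are not given here. From the counts given here alone, a drop particular to the 9 genes cannot be told from a drop over all probe sets.

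**Figure D1:**
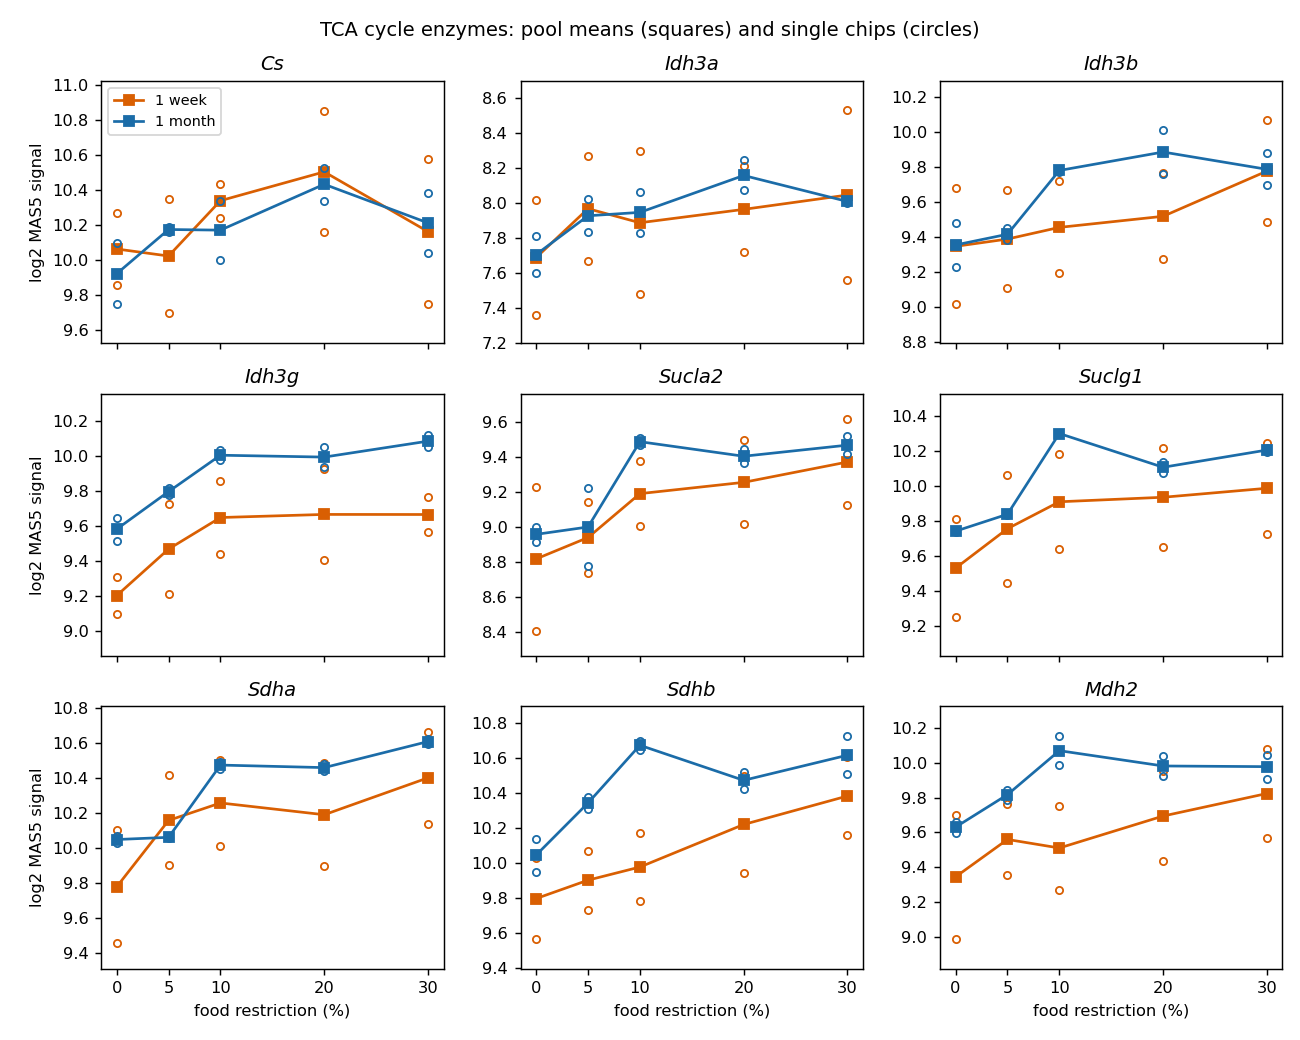
Log2 MAS5 signal (y axis, a scale of its own in each panel) of the 9 genes against food restriction in percent (x axis) at 1 week (orange) and 1 month (blue), where each square is the mean of a pool and each circle 1 array. The 2 arrays of a 1-week pool lie apart because they were scaled to different levels, and the control pool is the lowest of its duration for all genes but Cs at 1 week.

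Citrate synthase, encoded by Cs, joins acetyl-CoA to oxaloacetate and opens the cycle. Its signal was 10.06 in the control, 10.02 at 5%, 10.34 at 10%, 10.50 at 20% and 10.16 at 30% CR at 1 week. At 1 month it was 9.92 in the control, 10.17 at 5%, 10.17 at 10%, 10.43 at 20% and 10.21 at 30% CR. On this probe set the 20% pools were the highest at both durations, and the 1-week pool of 5% CR lay just under its control. The slope of 0.086 ± 0.045 (SE, n = 10 pools) did not pass the test (limma adjusted p = 0.226). On the other 2 Cs probe sets the slope was 0.086 ± 0.034 (limma adjusted p = 0.125) and 0.091 ± 0.037 (limma adjusted p = 0.129). Their pools took other paths: the first was highest at 30% CR at 1 week and at 10% CR at 1 month, and on the second the 1-week pool of 5% CR stood 0.36 above its control.

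NAD-dependent isocitrate dehydrogenase, which turns isocitrate into 2-oxoglutarate and is held as a control point of the cycle, is built of a catalytic alpha subunit (Idh3a) with beta (Idh3b) and gamma (Idh3g) subunits. Idh3a had 7.69 in the control, 7.97 at 5%, 7.89 at 10%, 7.96 at 20% and 8.04 at 30% CR at 1 week, and 7.70, 7.93, 7.95, 8.16 and 8.01 at 1 month in the same order. All 8 restricted pools lay above their control, but its slope of 0.095 ± 0.035 did not pass (limma adjusted p = 0.0987, n = 10 pools). Idh3b had 9.34 in the control, 9.39 at 5%, 9.45 at 10%, 9.52 at 20% and 9.77 at 30% CR at 1 week. At 1 month its control had 9.35 and the 5% pool 9.41, while the pools from 10% to 30% CR had 9.78, 9.88 and 9.78. Idh3b rose by a slope of 0.15 ± 0.035, or 1.36-fold at 30% CR (limma adjusted p = 0.0275). Idh3g had 9.20 in the control, 9.47 at 5%, 9.65 at 10%, 9.67 at 20% and 9.67 at 30% CR at 1 week, and 9.58, 9.80, 10.01, 10.00 and 10.09 at 1 month. It was level from 10% CR on at both durations. Its slope was 0.14 ± 0.036, or 1.33-fold at 30% CR (limma adjusted p = 0.0368).

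Succinyl-CoA ligase splits succinyl-CoA and makes a nucleotide triphosphate; Suclg1 encodes its common alpha subunit and Sucla2 the beta subunit that works with ADP. Sucla2 had 8.82 in the control, 8.94 at 5%, 9.19 at 10%, 9.26 at 20% and 9.37 at 30% CR at 1 week. At 1 month it had 8.96 in the control, 0.042 more at 5%, 9.49 at 10%, 9.40 at 20% and 9.47 at 30% CR. Sucla2 climbed with every level at 1 week, and its pools of 10% CR and more stood apart from the control and 5% pools at 1 month. It had the steepest slope of the 9 genes, 0.17 ± 0.039 (1.44-fold at 30% CR, limma adjusted p = 0.0223). Suclg1 had 9.53 in the control, 9.76 at 5%, 9.91 at 10%, 9.94 at 20% and 9.99 at 30% CR at 1 week, and 9.74, 9.84, 10.30, 10.11 and 10.21 at 1 month. Every restricted pool was above its control, and the slope of 0.13 ± 0.041 missed the threshold (limma adjusted p = 0.0611).

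Succinate dehydrogenase belongs both to the cycle and, as complex II, to the respiratory chain; Sdha encodes the flavoprotein that oxidises succinate and Sdhb the iron-sulfur subunit that passes the electrons on. Sdha had 9.78 in the control, 10.16 at 5%, 10.26 at 10%, 10.19 at 20% and 10.40 at 30% CR at 1 week. At 1 month it had 10.05 in the control, 10.06 at 5%, 10.48 at 10%, 10.46 at 20% and 10.61 at 30% CR. The 5% pool lay well above the control at 1 week and level with it at 1 month. Sdha rose by a slope of 0.17 ± 0.039 (1.43-fold at 30% CR, limma adjusted p = 0.0229). Sdhb had 9.80 in the control, 9.90 at 5%, 9.98 at 10%, 10.22 at 20% and 10.38 at 30% CR at 1 week, and 10.04, 10.34, 10.67, 10.47 and 10.62 at 1 month. Its slope was the same in size, 0.17 ± 0.039 (1.43-fold at 30% CR, limma adjusted p = 0.0235). A difference from the control of 1.5-fold or more was reached by Sdhb in 2 pools, by Sdha in 1 pool and by the other genes in 0.

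Malate dehydrogenase of the mitochondrion, encoded by Mdh2, restores oxaloacetate. It had 9.35 in the control, 9.56 at 5%, 9.51 at 10%, 9.69 at 20% and 9.82 at 30% CR at 1 week, and 9.63, 9.82, 10.07, 9.98 and 9.98 at 1 month. Its slope of 0.12 ± 0.034 (1.28-fold at 30% CR) lay at the edge of the threshold (limma adjusted p = 0.0498, n = 10 pools).

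Across the 9 genes, the pool mean lay above the control in all 8 restricted pools for 8 genes, all but Cs (15.1% of all tested probe sets). Both same-numbered arrays lay above those of the control in all 8 restricted pools for 5 genes, Idh3a, Idh3g, Suclg1, Sdhb and Mdh2 (6.62% of all tested probe sets). These counts use the 1 control pool of each duration 4 times, so that a low control pool moves all 4 differences together. The path differed in shape between the durations. At 1 week the median difference of the 9 genes from the control was 0.21 at 5%, 0.28 at 10%, 0.41 at 20% and 0.46 at 30% CR. At 1 month it was 0.19 at 5% CR and 0.43, 0.43 and 0.46 from 10% to 30% CR. The highest pool at 1 week was 30% CR for 7 genes and 20% CR for 2. At 1 month it was 10% CR for 4 genes, 20% CR for 3 and 30% CR for 2. This difference in shape was not tested. The median difference of all tested probe sets from the control lay between -0.063 and 0.039 in these 8 pools.

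**Figure D2:**
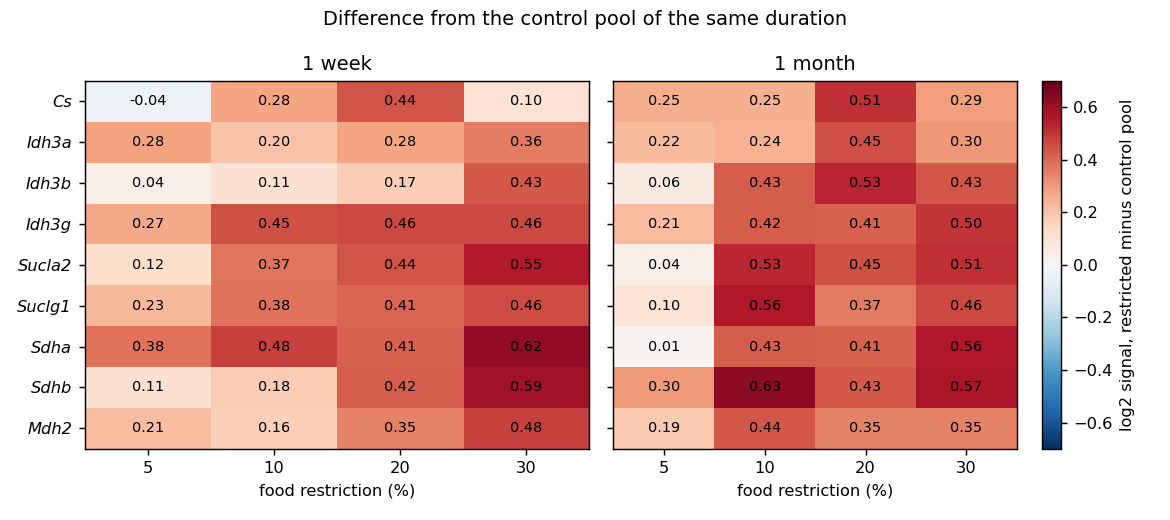
Difference in log2 signal of each restricted pool from the control pool of its duration, for the 9 genes (rows) at 4 levels of restriction in percent (columns), with 1 week on the left, 1 month on the right and red for higher than control. All cells but that of Cs at 5% CR and 1 week (-0.040) are above 0, and the medians of the 1-month columns are 0.19 at 5% CR and 0.43 to 0.46 from 10% CR on.

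Taken at each duration alone, 0 of the 9 genes passed on pool means. In a fit of the 20 arrays with the replicate number as a block and the pool as a random effect, 4 passed at 1 week and 2 at 1 month. The share of all probe sets called in that fit is not given here. On pool means at 1 week the slopes of the 9 genes ran between 0.074 and 0.20, and 6 had an unadjusted p under 0.05. The lowest limma adjusted p was 0.126 (0.221% of all tested probe sets called higher). At 1 month their slopes ran between 0.095 and 0.19, 6 had an unadjusted p under 0.05 and the lowest limma adjusted p was 0.226 (0.0945% called higher). The slope at 1 month minus that at 1 week lay between -0.054 and 0.035, and 0 genes passed by limma, 0 also at an unadjusted p under 0.05 (0% of all tested called higher). With the 8 restricted pools set against the 2 control pools without regard to level, 1 gene passed, Idh3g, at 0.40 ± 0.089 (limma adjusted p = 0.0293, 4.34% called higher). The other 8 genes were 0.26 to 0.41 higher in restricted pools. This count of 1 was unstable: it was 7 without the 1-month 5% pool, 3 without the 1-week 5% pool, and 0 without the control, 10% or 20% pool of either duration. It was also 0 without the second arrays or without the intensity trend, and 7 with the replicate block. The shares of all probe sets called in these alternatives are not given here. A step between the control pools and the line through the restricted ones was 0.055 to 0.27, and 0 genes passed by limma, with 1 at an unadjusted p under 0.05 (lowest adjusted p = 0.299, 0.315% called higher).

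Signals at 1 month were above those at 1 week by 0.36 for Idh3g, 0.37 for Sdhb and 0.31 for Mdh2, and these 3 genes passed by limma (adjusted p = 0.0260, 0.0315 and 0.0397, 3.31% of all tested called higher). The median of all tested probe sets was itself 0.068 higher at 1 month. With each array centred on its median, or with quantile normalisation, 0 of the 9 genes passed, so that this comparison depended on the scaling. Idh3g, Sdhb and Mdh2 then stood 0.32, 0.33 and 0.27 above the 1-week level after centring, and 0.26, 0.23 and 0.19 above it after quantile normalisation.

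Subunits of 1 enzyme were compared over 5 pairs in an exact two-sided permutation test of restriction levels within duration (14400 orders, adjusted over the 5 pairs). The slope of Sucla2 was steeper than that of Suclg1 by 0.040 ± 0.014 (95% interval 0.0075 to 0.072, exact p = 0.0254, adjusted p = 0.127), and after quantile normalisation by 0.052 (exact adjusted p = 0.0215). It was 0.020 without the first arrays (exact p = 0.579) and 0.059 without the second (exact p = 0.0572). Sdha and Sdhb differed in slope by 0.00038 (95% interval -0.11 to 0.11, exact adjusted p = 0.993). The slope of Idh3a minus that of Idh3b was -0.053 (95% interval -0.13 to 0.027), and minus that of Idh3g -0.044 (exact adjusted p = 0.332 for both). Idh3b minus Idh3g was 0.0090 (exact adjusted p = 0.993). No pair passed the adjusted test on the signals as deposited.

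Marker means of other cell types also differed between the pools. The mean of the 9 adipocyte markers was 9.93 in the control, 10.19 at 5%, 10.23 at 10%, 10.22 at 20% and 10.27 at 30% CR at 1 week, and 10.06, 10.42, 10.59, 10.52 and 10.33 at 1 month. The control pools were the lowest in adipocyte markers at both durations, 8 of the 9 markers had a slope above 0 and 2 passed upwards. From the control up to 30% CR, the mean of 9 lymphocyte markers was 7.37, 6.57, 5.45, 5.85 and 3.01 at 1 week and 7.37, 7.34, 3.38, 3.20 and 6.35 at 1 month. It was highest in the control pools and uneven over the levels, and of the 7 lymphocyte markers tested 1 passed downwards. With the adipocyte mean as a term in the fit, the 9 slopes were 0.051 to 0.14. With the lymphocyte mean they were 0.066 to 0.13. The slopes of all 9 genes stayed above 0 in both fits, but 0 of the 9 passed in either. For restricted against control pools, the estimates of the 9 genes were -0.064 to 0.38 with the adipocyte mean. With the lymphocyte mean these estimates were 0.079 to 0.33. The macrophage mean was highest in the control pool at both durations, at 7.81 in the control and 7.72, 7.67, 7.63 and 7.31 from 5% to 30% CR at 1 week, and 8.47, 7.62, 7.53, 7.57 and 7.86 at 1 month. Of the 8 macrophage markers tested 7 had a slope below 0, and Aif1 passed downwards (-0.40) and Cd14 upwards (0.16). Among 7 endothelial markers, whose mean lay between 6.73 and 7.21, 3 had a slope above 0. Plvap passed downwards (-0.53), and Gpihbp1 had the largest slope upwards without passing (0.31, limma adjusted p = 0.0519). In the brown fat list, the thermogenic gene Ucp1, which defines brown and beige fat, lay between 1.75 and 3.91 in all pools, whereas Cidea, the 1 gene of the list that could be tested, passed upwards (0.30, limma adjusted p = 0.00553). Over all tested probe sets 5.71% passed upwards and 3.69% downwards on the dose slope. The part of macrophage, endothelial and brown fat markers in the result was not tested.

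**Figure D3:**
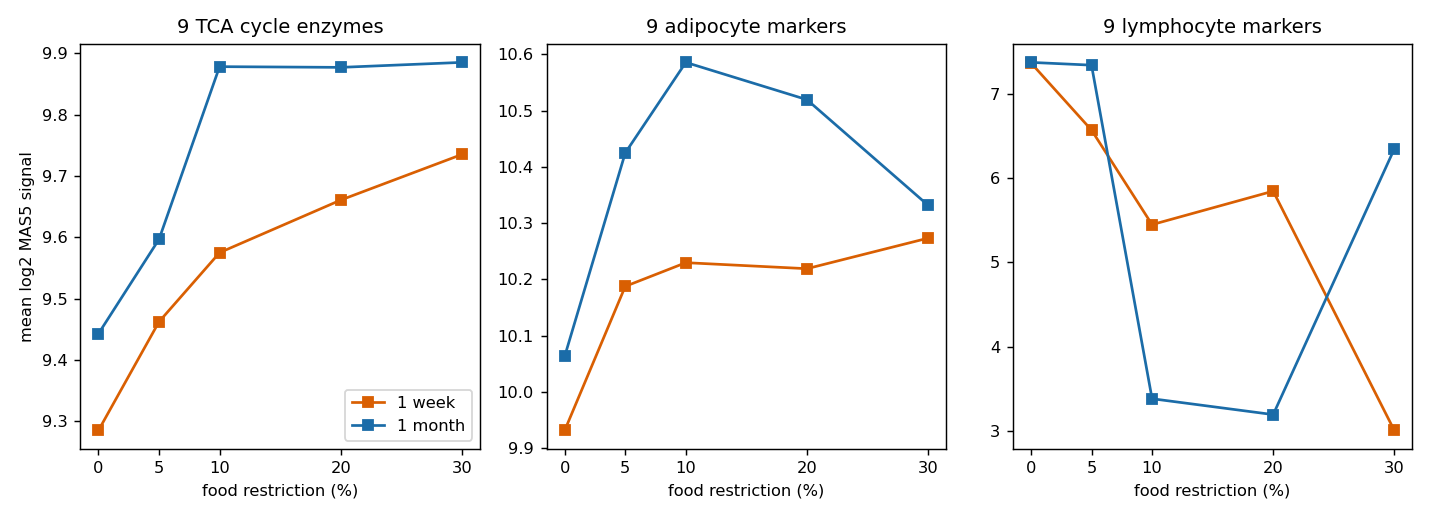
Mean log2 MAS5 signal of the 9 TCA cycle enzymes (left), 9 adipocyte markers (middle) and 9 lymphocyte markers (right) in each pool against food restriction in percent, at 1 week (orange) and 1 month (blue), each panel with its own y axis. The TCA cycle mean is lowest in both control pools, as is the adipocyte mean, and the lymphocyte mean is highest in them.

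Other enzymes of the cycle were followed on 7 genes, beside a share of 5.71% of all tested probe sets called higher on the dose slope. Suclg2, the GTP-linked beta subunit of succinyl-CoA ligase, passed upwards with a slope of 0.13 ± 0.036 (1.30-fold at 30% CR, limma adjusted p = 0.0490). Its restricted pools had 9.40 to 9.50 and its control 9.04 at 1 week, and its restricted pools had 9.25 to 9.58 and its control 9.12 at 1 month. The other 6 (Idh2, Ogdh, Dlst, Dld, Sdhc and Sdhd) did not pass, 0 went down, and all 7 slopes were above 0 with a median of 0.096.

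Pyruvate enters the mitochondrion through the carrier Mpc1/Mpc2 and is made into acetyl-CoA by the pyruvate dehydrogenase complex, which kinases of the Pdk family switch off. Of 12 listed genes 11 were tested, 6 passed upwards and 0 downwards, with a median slope of 0.16 (5.71% of all tested probe sets called higher). The steepest was the kinase Pdk4. Its signal was 6.85 in the control, 6.68 at 5%, 7.11 at 10%, 7.99 at 20% and 8.40 at 30% CR at 1 week, and 6.79, 7.40, 7.87, 7.89 and 8.16 at 1 month. The slope of Pdk4 was 0.50, that of Pdk2 0.43 and that of Pdk1 0.26. The complex subunit Pdha1 (0.18), its binding protein Pdhx (0.22) and the carrier Mpc1 (0.16) rose too. Some kinases that inhibit the complex and some components of the complex thus both stood higher. The kinase Pdk3 (-0.12, limma adjusted p = 0.239) and the complex subunit Pdhb (0.063, limma adjusted p = 0.372) did not pass. The Pdha1 signal was 11.14 at 30% CR and 10.68 in the control at 1 week, and 11.23 at 30% CR and 10.61 in the control at 1 month.

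**Figure D4:**
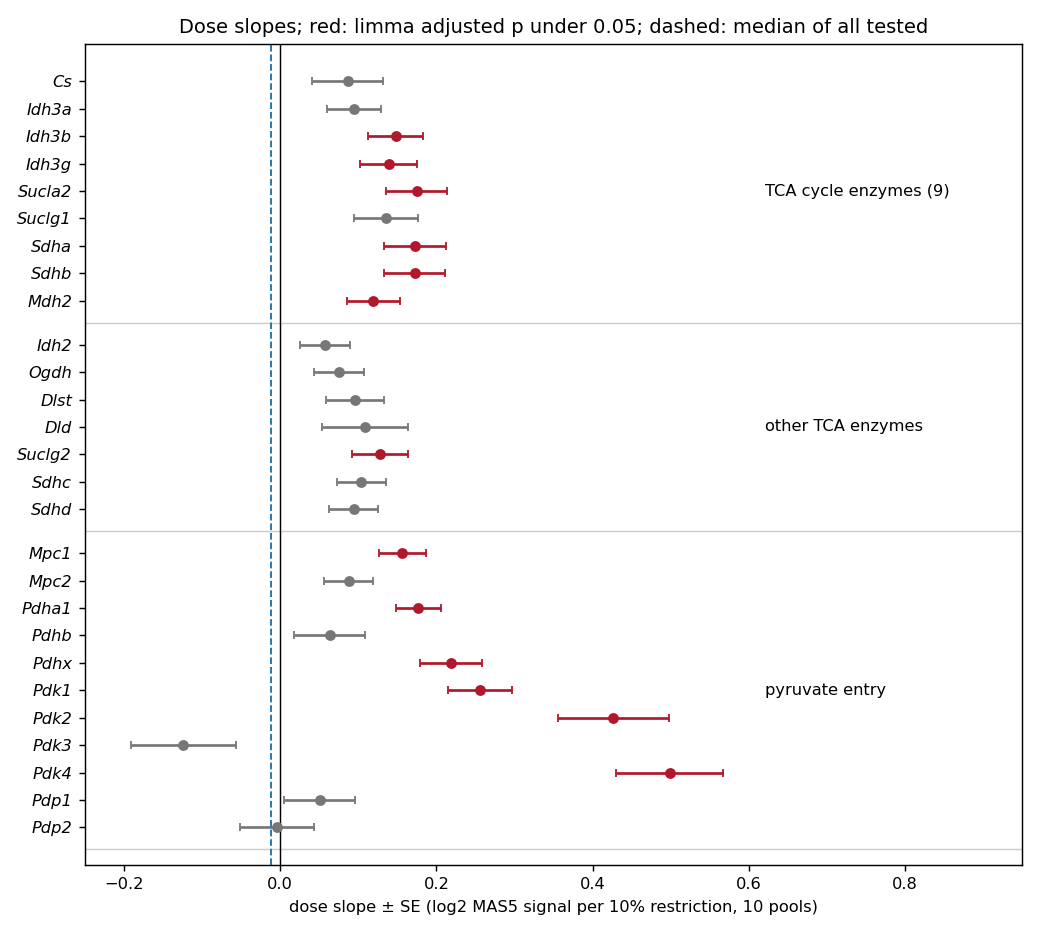
Dose slope ± SE (x axis, log2 signal for each 10% of restriction, 10 pools) of the 9 TCA cycle enzymes, the other enzymes of the cycle and the genes of pyruvate entry, with red for a limma adjusted p under 0.05 and a dashed line at the median of all tested probe sets (-0.011). Of the 9 TCA cycle enzymes 6 are red, all 9 lie to the right of 0, and Pdk4 and Pdk2 lie furthest to the right.

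Among 19 genes that fill, drain or exchange the cycle's intermediates, 16 were tested, 3 passed upwards and 0 downwards (median slope 0.10). They were the cytosolic aconitase Aco1 (0.23), the dicarboxylate carrier Slc25a10 (0.23) and the cytosolic malate dehydrogenase Mdh1 (0.11). Of 14 regulators of mitochondrial biogenesis 6 were tested and 0 passed by limma. The largest slopes were those of Pparg, the master regulator of adipocyte formation (0.30, limma adjusted p = 0.0817), and of the stress-response factor Nfe2l2 (0.17, limma adjusted p = 0.0795). Ppargc1a, a coactivator of mitochondrial genes, lay below the filter on low signals. Of 22 genes that stand for mitochondrial content, 19 were tested, 5 passed upwards and 0 downwards (median slope 0.090). These were the outer membrane channel Vdac1 (0.15), the matrix protease Clpp (0.13), the chaperones Hspa9 (0.12) and Hspd1 (0.090) and the inner membrane scaffold Phb2 (0.11). Over all tested probe sets 5.71% were called higher on the dose slope. The counts of these lists were described and not tested as lists.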

How the data were processed

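Series values were MAS5 signal intensities, which the authors computed from Affymetrix rat arrays and deposited as 1 table of 15923 probe sets and 20 arrays. The scaling target is not given in the sources used here. The 57 array controls were left out. Of the remaining 15866 probe sets, 12783 carried 1 gene symbol in the platform annotation, 312 several and 2771 none. Intensities under 1 were set to 1 and log2 values of the 2 arrays of a pool averaged. The dimmest probe sets, under the 40th percentile of the mean over arrays (signal 22.8), were filtered out, which left 9520. limma 3.58.1 (R 4.3.3, lmFit and eBayes with trend) fitted a slope for each 10% of restriction with duration as a covariate, two-sided, Benjamini-Hochberg over all probe sets, at 0.05. Duplicate arrays correlated at 0.971 to 0.982. The median SD was 0.186 between arrays of a pool and thus 0.132 for a pool mean, which is array error only. The number of arrays and pools limits the precision.

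Named were all 9 enzymes, at most 6 genes past the threshold of each pathway list (the 2 steepest where none passed), and the 8 genes most like the mean of the 9. The members and lists were chosen with earlier results of these data known. Alternatives changed the filter, scaling, offset, probe set, trend, dose scale, arrays, pools and covariates. Fitting only restricted pools and adding the adipocyte mean were chosen after seeing the data. The fits were tested on simulated data. Promoters are RefSeq sequences of GRCr8.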

Additional observations from a re-analysis of the deposited data

How the results depend on the processing

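The slopes of the 9 TCA cycle enzymes were above 0 in all 225 combinations of gene and alternative over 25 alternatives. Of these gene results 153 kept their side of the threshold, 67 lost the call and 5 gained it. The count of 6 genes called on the dose slope lay between 0 and 7 with 1 pool left out, and was 3 with either array of each pool left out. It was 0 without both pools with pancreas RNA, 0 with the lymphocyte mean, 0 with the adipocyte mean and 0 in restricted pools alone. It was 4 without a filter, after quantile normalisation and without the intensity trend. The shares of all probe sets called were not set beside these counts.

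The replicate numbers mark duplicate arrays of 1 pool, not paired animals. With the number as a replicate block and the pool as a random effect, 7 genes passed on the dose slope, 4 on the slope at 1 week, 2 on the slope at 1 month and 7 for restricted against control pools, where 6, 0, 0 and 1 passed on pool means. The cause of these differences was not tested. The shares of all probe sets called in the block fit and in the alternatives below are not given here. On the slope at 1 week, leaving out 1 pool or array gave 0 to 1. For restricted against control pools, leaving out 1 pool or array gave 0 to 7, the stricter filter 2, and the fit without trend, without the pools with pancreas RNA, with the lymphocyte mean or with the adipocyte mean 0. For 1 month against 1 week, median centring and quantile normalisation gave 0 in place of 3. Of the 5 subunit pairs, 1 passed after quantile normalisation.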

Other observations

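Of the 7104 tested genes outside the 9 TCA cycle enzymes, the 8 whose pool values, centred within duration, followed the mean of the 9 most closely over the 10 pools had Pearson r between 0.988 and 0.994. They included Acadl, which opens the oxidation of long-chain acyl-CoA in mitochondria (slope 0.24), Decr2, the peroxisomal 2,4-dienoyl-CoA reductase (0.29), and Phyh, which starts the breakdown of phytanic acid in peroxisomes (0.27). Cidea, a lipid droplet protein that is also on the brown fat list (0.30), Apool, a protein of the mitochondrial inner membrane (0.22), Dpm1 (0.25), Arxes1 (0.41) and Zc3h14 (0.24) made up the rest. These genes were chosen by the r, which is a description over pools that share controls and array scaling.

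Within the 9 genes, Cs followed the others least. Its r with the mean of the other 8 was 0.609, and that of Idh3a was 0.828, whereas Sucla2 reached 0.967. The lowest of the 36 pairwise r was 0.482 (Cs with Sdha), the highest 0.970 (Sucla2 with Suclg1) and the median 0.855.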
